A study of Mus musculus with 12 samples.

Results

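The genes described here are 33 genes of presynaptic vesicle release, taken by gene symbol from a named list and measured as messenger RNA in mouse hippocampus. All 33 were found among the 52636 genes of the deposited tables, and all 33 reached a mean of 1 TPM (a transcript abundance corrected for transcript length and scaled to one total per library), as did 18499 genes in all. All groups shared tissue, genotype, strain and age: the samples were hippocampi from 12 wild-type mice of the C57BL6/J strain, 18 weeks old. They formed 4 groups of 3 mice, namely males with a high extinction level, males with a low extinction level, females with a high extinction level and females with a low extinction level. In fear extinction an animal that has learned to fear a cue or a place shows less and less fear on repeated harmless exposure. The sources used here do not give how extinction was scored or how these mice were picked. Each library came from its own mouse, and every change below is low minus high extinction on a log2 scale.

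Neurons store transmitter in synaptic vesicles, which are docked at a scaffold called the active zone, primed by Unc13 proteins, and fused with the plasma membrane by SNARE proteins when calcium binds a synaptotagmin. Complexins clamp and assist that fusion, and NSF with its SNAP adaptors takes the spent SNARE complexes apart for reuse. In the hippocampus most of this machinery serves glutamatergic principal cells, whose vesicles are filled by VGLUT1, the product of Slc17a7. Since whole tissue was sequenced, fewer cells of a type and less RNA per cell cannot be told apart.

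No vesicle release gene passed the test between low and high extinction. The count was 0 of 33 at an adjusted p of 0.05 in limma on log2(TPM + 1), either in males, in females, on average over both sexes, or in the interaction (the male change minus the female change). The background was 0.0% of 18303 genes in males, 0.0107% of 18668 in females, and 0.0% and 0.00541% of 18499 for the average and the interaction. At an unadjusted p under 0.05, limma listed 1151, 1648, 1424 and 1466 of all genes in those 4 comparisons, and of the 33 it listed Syt7 in males, Slc17a7 and Unc13b in females and on average, and Unc13b in the interaction. None of the 33 passed an adjusted p of 0.05 in the authors' deposited DESeq2 tables either, where 0.504% of 20050 genes passed in males and 0.857% of 15644 in females. The largest TPM differences were in females, -0.56 for Slc17a7 (limma, SE 0.10, adjusted p 0.384) and 0.53 for Unc13b (SE 0.14, adjusted p 0.477). Of the changes in the authors' deposited table for females, 26 of the 33 genes lay below 0 (78.8%), with a median of -0.06. The share there was 55.2% of all genes (median -0.01), 62.8% of the 9112 genes with mean normalized counts at least those of the lowest of the 33 (median -0.03), and 71.0% of 93 other presynaptic genes. In the authors' deposited table for males it was 17 of 33 (51.5%). On deposited TPM, by contrast, 18 of the 33 lay above 0 in females, with a median of 0.02 against 0.06 for all genes. Without replicate 2 of the low-extinction females, 29 of the 33 did.

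The starts of Slc17a7 and Unc13b are shown because these are the genes with the largest TPM differences, both in females. In the authors' deposited table for females Bsn (-0.18) lay further from 0 than Slc17a7 (-0.17). Each is the 250 bases before the RefSeq gene start on the plus strand of GRCm38.p6, with matches to the GC box (GGGCGG on either strand, a site bound by Sp1-family factors) in capitals.
Slc17a7, chr7:45163671-45163920: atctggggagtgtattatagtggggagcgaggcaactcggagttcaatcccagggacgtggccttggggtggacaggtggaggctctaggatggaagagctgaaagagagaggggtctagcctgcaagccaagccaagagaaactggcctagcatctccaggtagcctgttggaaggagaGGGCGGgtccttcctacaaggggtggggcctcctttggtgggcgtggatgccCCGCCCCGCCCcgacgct
Unc13b, chr4:43058703-43058952: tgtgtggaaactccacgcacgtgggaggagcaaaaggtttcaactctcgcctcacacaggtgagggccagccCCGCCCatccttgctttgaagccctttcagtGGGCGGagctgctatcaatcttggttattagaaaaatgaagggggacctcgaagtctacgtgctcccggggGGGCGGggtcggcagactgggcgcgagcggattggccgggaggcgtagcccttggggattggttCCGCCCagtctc
The Slc17a7 window holds 3 GC boxes and the Unc13b window 4, and their G and C content is 61.2% and 60.8%. RefSeq promoter windows were found for 26 of the 33 genes, 35 windows in all, since some genes have more than one start. A GC box occurred in 20 of the 35 windows, or 57.1%, against 32.7% of 32851 mouse windows of the same length. The cAMP response element TGACGTCA, bound by CREB, occurred in 1 of the 35 (Syn1), against 1.55% of all windows. The TATA box TATAAA occurred in 2, both of Sv2b, against 12.4%, and the site of EGR factors GCGTGGGCG in 1 (Unc13a), against 0.536%. The EGR site shares no full GC box, and both strands were searched for every motif. Such matches describe letters and show no binding.

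Depth per library is unknown because TPM keeps none. The authors' deposited tables give mean normalized counts per gene, which sum to 42.6 M for males and to 43.4 M for females. Transcripts derived from ribosomal RNA made up 11.0% to 21.8% of TPM in the male high-extinction libraries, 13.7% to 15.2% in the male low-extinction ones, 10.7% to 13.6% in the female high-extinction ones and 7.31% to 11.8% in the female low-extinction ones. Summed pan-neuronal markers lay at 2205 to 2994 TPM, and all 12 markers of hippocampal glutamatergic subfields were detected in each library, with sums of 679 to 813 TPM. Of 13 marker lists, 3 had sums that did not overlap between the female groups and 2 between the male groups. The 12 markers of thalamus and habenula summed to 148 to 168 TPM in the female low-extinction libraries against 114 to 134 in the female high-extinction ones, and to 90.9 to 118 against 107 to 129, with overlap, in males. The 8 meningeal fibroblast markers summed to 110 to 128 against 91.0 to 94.0 TPM in females, and to 48.8 to 102 against 112 to 133 in males. The 8 markers of endothelium and pericytes summed to 193 to 212 against 163 to 187 TPM in females, and the 8 of ependyma to 13.6 to 28.7 against 45.6 to 55.4 TPM in males. Sums of the 10 choroid plexus markers overlapped between groups but ranged widely. They were 522 to 4348 TPM at high and 152 to 1326 TPM at low extinction in males, a log2 change of -2.64. In females they were 141 to 1677 and 244 to 1570 TPM. None of these markers was at 0 in any library, and their part in the changes of the vesicle release genes was not tested.

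On the TPM scale, which corrects for transcript length, the 33 genes spanned 201-fold. Snap25 lay highest, at a mean of 1916 TPM over the 12 libraries, and Unc13c lowest, at 9.52 TPM. In all, 7 genes exceeded 500 TPM (Snap25, Syp, Vamp2, Syt1, Cplx2, Slc17a7 and Nsf), 19 exceeded 100 TPM, 11 lay between 20 and 100, and 3 (Sv2c, Syn3 and Unc13c) lay under 20. The 33 genes together took 9156 to 11184 TPM of each library. Neighbours in this order mostly overlapped, as did Syp and Vamp2, with 891 ± 105 and 878 ± 54.9 TPM in the male high-extinction group (SD, n = 3). The median within-group SD on the log2(TPM + 1) scale was 0.11 for the 33 genes and 0.15 for all 18499 genes. These sets were not matched in level. The median limma SE in males was 0.105 for the 33 and 0.128 for all genes tested. It was 0.107 and 0.112 when the filter was raised to 5 TPM. In females it was 0.072 and 0.114, and 0.072 and 0.096 at the higher filter. By within-group SD, Rims2 was the steadiest of the 33 (0.05), and Syt2 (0.41), Unc13c (0.31), Slc17a7 (0.29) and Unc13b (0.21) varied most.

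**Figure D1:**
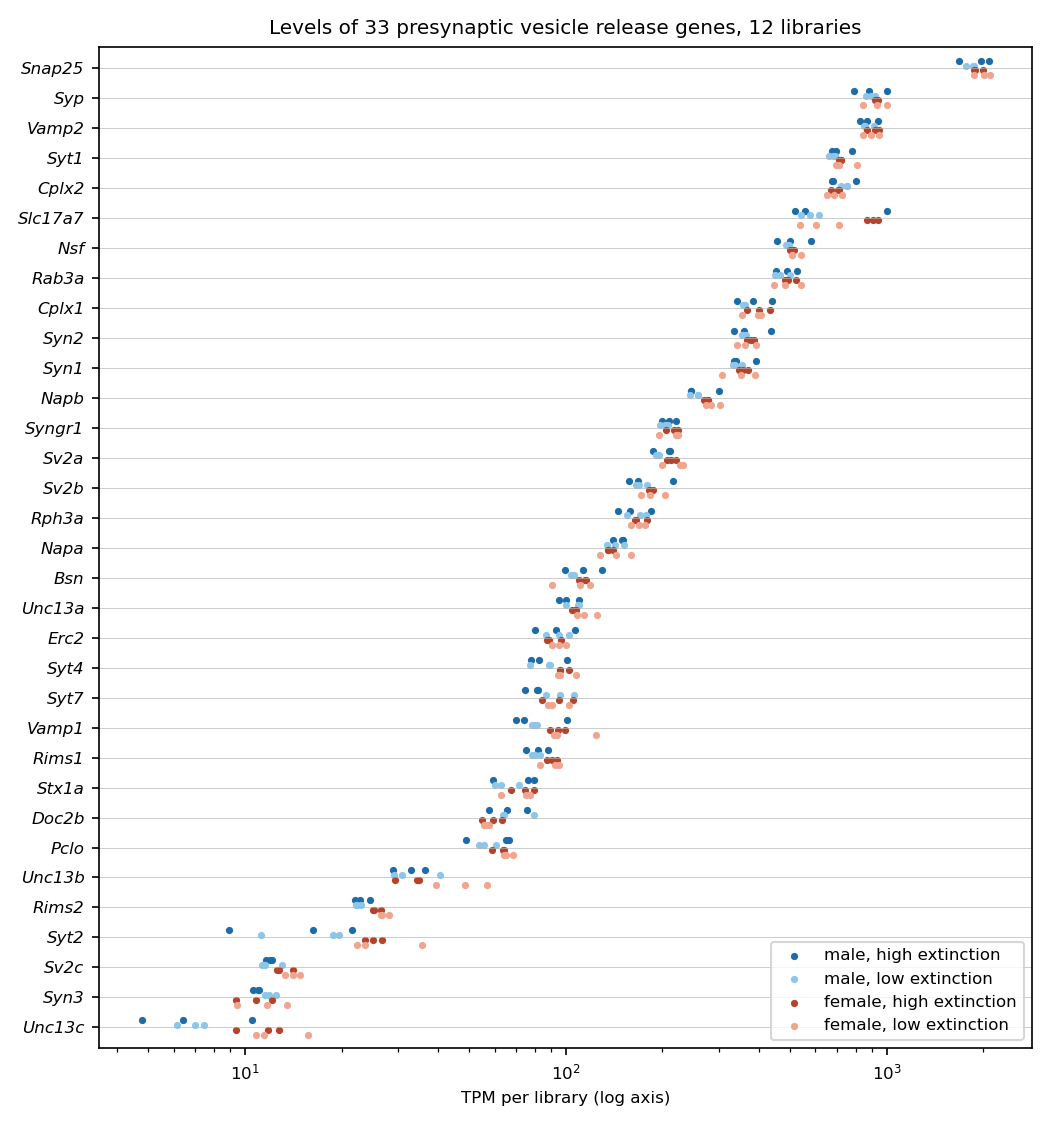
TPM of each gene in each of the 12 libraries on a log axis, ordered by mean, with a point per mouse and a colour per group. Points of the 4 groups overlap for most genes, while the 3 female high-extinction points of Slc17a7 lie to the right of the 3 female low-extinction points.

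Slc17a7 (ENSMUSG00000070570.5) encodes the vesicular glutamate transporter of most hippocampal principal cells and spans positions 45163949 to 45176142 of chromosome 7 on the plus strand (GRCm38, GENCODE M21). Its level was 906, 872 and 941 TPM in the female high-extinction libraries and 537, 711 and 601 TPM in the female low-extinction ones. All 3 low-extinction females thus lay below all 3 high-extinction females, with means of 616 ± 88.1 and 906 ± 34.6 TPM (SD, n = 3). Among all 18499 genes, 1.98% had female groups apart in this direction, and Slc17a7 was the only one of the 33. In males the level was 518, 556 and 1004 TPM at high and 540, 579 and 616 TPM at low extinction. The male groups overlapped, and replicate 3 of the high-extinction males stood above the other 5 males. The female change was -0.56 in limma (95% interval -0.81 to -0.32, adjusted p 0.384), and the male change was -0.20 (interval -0.75 to 0.36, adjusted p 0.966). In limma the male change was 0.11 (adjusted p 0.852) without replicate 3 of the high-extinction males. The male minus the female change was 0.37 (limma, SE 0.29, adjusted p 0.779), and it ran from 0.19 to 0.67 when single libraries were left out. Averaged over both sexes it was -0.38, and the two-sided exact permutation p was 0.05 over 400 within-sex assignments (the smallest possible is 0.005) and an adjusted p of 0.683 over all genes. Without replicate 1 or replicate 2 of the high-extinction males that exact permutation p was 0.02 or 0.035. Without replicate 3 of that group the average was -0.23, with an exact permutation p of 0.12, the highest when single libraries were left out.

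The difference of Slc17a7 was smaller on the count scale than in TPM. Its change in the authors' deposited table was -0.17 in females (95% interval -0.31 to -0.03, adjusted p 0.356) and 0.03 in males (interval -0.10 to 0.17, adjusted p 0.999). The female TPM change therefore lay -0.39 from the authors' deposited table value. Over the 33 genes this gap had a median of 0.08, and 31 of 33 lay within 0.1 of it. Of 15277 genes at large, 77.8% lay within 0.1 of their own median gap. Slc17a7 has 5 annotated transcripts of 1860 to 3080 bases, and TPM divides by the length of the transcript to which reads are assigned. The part of transcript assignment was not tested. Summed markers of the glutamatergic subfields overlapped between the female groups, at 697 to 748 TPM for high and 686 to 813 TPM for low extinction.

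**Figure D2:**
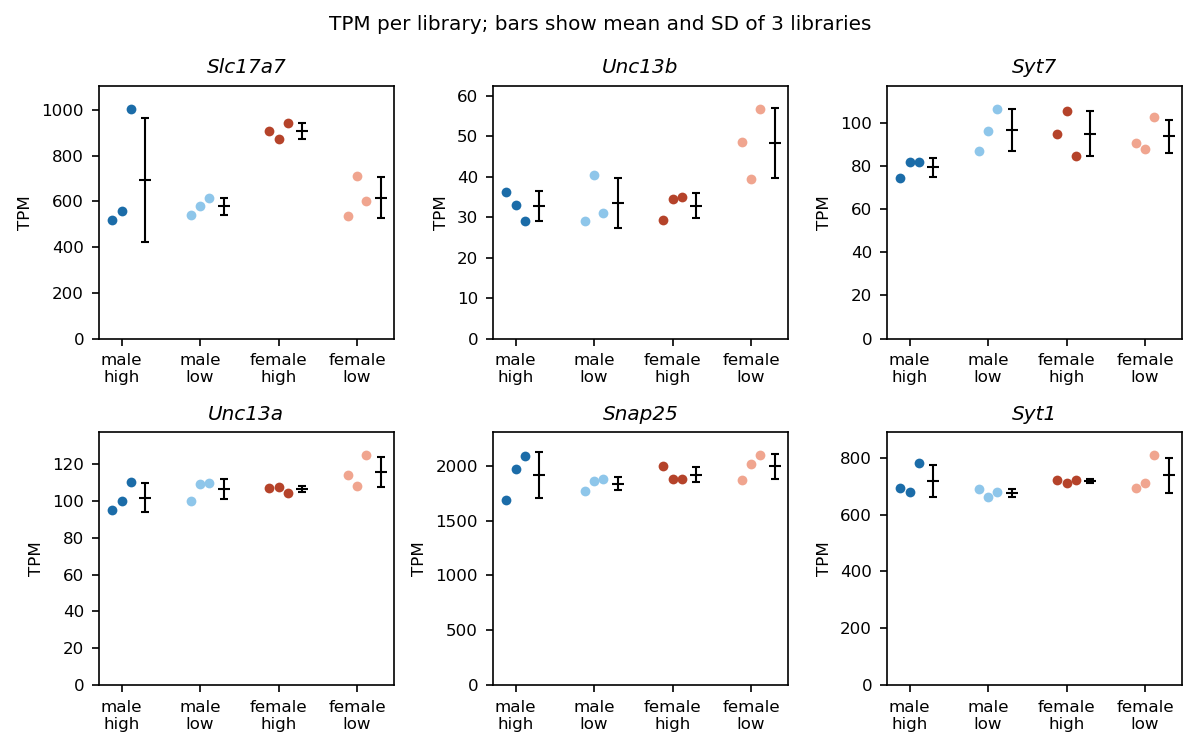
TPM per library from 0 for Slc17a7, Unc13b, Syt7, Unc13a, Snap25 and Syt1, with a point per mouse, colours for the 4 groups, and bars for the mean and SD of 3 libraries. Slc17a7 and Unc13b separate the female groups in opposite directions, Syt7 separates the male groups, and Snap25 and Syt1 overlap in both sexes.

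Among the 3 priming factors, which make docked vesicles ready to fuse, is Unc13b (Munc13-2, ENSMUSG00000028456.18, chromosome 4, positions 43058953 to 43264871, plus strand). It measured 29.3, 34.4 and 34.9 TPM in the high-extinction females and 48.6, 39.5 and 56.7 TPM in the low-extinction females. Every low-extinction female lay above every high-extinction female, with means of 48.3 ± 8.63 and 32.9 ± 3.11 TPM (SD, n = 3). Among all 18499 genes, 14.2% had female groups apart in this direction. In males it measured 36.3, 32.9 and 29.0 TPM at high and 29.1, 40.4 and 30.9 TPM at low extinction, and the groups overlapped. limma gave 0.53 in females (95% interval 0.20 to 0.86, adjusted p 0.477), 0.02 in males (interval -0.31 to 0.35, adjusted p 0.996) and -0.51 for the male minus the female change (SE 0.21, adjusted p 0.606). The average over both sexes was 0.28, with a p of 0.09 in the two-sided exact permutation test and an adjusted p of 0.781. The authors' deposited tables gave Unc13b changes of 0.19 in females (SE 0.06, adjusted p 0.149) and 0.17 in males (SE 0.08, adjusted p 0.558). When the fold changes of the authors' 2 deposited tables were averaged, an analysis chosen after the data were seen, Unc13b was the only one of the 33 past an adjusted p of 0.05 (0.18, SE 0.05, adjusted p 0.0382 from the DESeq2 errors). There 1.05% of 15642 genes passed, 90 higher and 75 lower at low extinction.

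The TPM change of Unc13b exceeded that in the authors' deposited table by 0.34 in females and lay -0.14 from it in males. It has 16 annotated transcripts of 495 to 14754 bases, and the part of transcript assignment was again not tested. Marker sums that were also apart in females differed there by 0.39 (thalamus and habenula), 0.33 (meningeal fibroblast) and 0.18 (endothelium and pericyte) on the log2 scale. Within the low-extinction females, replicate 3 had the highest Unc13b and the lowest thalamus and habenula sum, 148 TPM. It also had the highest meningeal fibroblast sum (128 TPM) and the highest endothelium and pericyte sum (212 TPM) of that group. The part of these markers in the Unc13b change was not tested.

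Unc13a (Munc13-1), the main priming factor of hippocampal glutamatergic synapses, measured 107, 108 and 104 TPM in the high-extinction and 114, 108.3 and 125 TPM in the low-extinction females. The female groups did not overlap, but the highest high-extinction value, 107.6 TPM, and the lowest low-extinction one were nearly equal. Female groups were apart in this direction for 14.2% of all genes. In males Unc13a measured 95.1, 100.04 and 110.2 TPM at high and 99.9, 109 and 109.9 TPM at low extinction, with overlap. The average change was 0.09 (two-sided exact permutation p 0.085, adjusted p 0.779). Unc13a had changes in the authors' deposited tables of 0.03 in females (adjusted p 0.932) and 0.07 in males (adjusted p 0.959). Unc13c (Munc13-3), best known from cerebellar granule cells, lay at 9.41 to 15.7 TPM in females and 4.76 to 10.5 TPM in males, with overlapping extinction groups in each sex.

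Among the calcium sensors, Syt7, a high-affinity synaptotagmin of asynchronous release and facilitation (chromosome 19, positions 10389090 to 10453180, plus strand), separated the male groups. It measured 74.4, 81.9 and 81.6 TPM in the high-extinction males and 87.1, 96.3 and 106 TPM in the low-extinction males. Every low-extinction male lay above every high-extinction male, with means of 96.6 ± 9.65 and 79.3 ± 4.22 TPM (SD, n = 3). Females measured 94.9, 105 and 84.4 TPM at high and 90.4, 88.0 and 103 TPM at low extinction, with overlap. limma gave 0.28 in males (95% interval 0.05 to 0.50, adjusted p 0.759), -0.02 in females (interval -0.25 to 0.22, adjusted p 0.969) and 0.29 for the interaction (SE 0.14, adjusted p 0.642). The authors' deposited table for males gave Syt7 a change of 0.14 (interval 0.01 to 0.27, unadjusted p 0.029, adjusted p 0.548), and that for females -0.02 (adjusted p 0.967). Together with Syn3 it made 2 of 33 genes whose low-extinction males all lay above the high-extinction ones, against 4.19% of all genes. No gene of the 33 had male groups apart in the other direction, against 7.32% of all genes.

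Syt1, the fast calcium sensor of synchronous release, measured 693, 678 and 782 TPM in high-extinction and 689, 663 and 679 TPM in low-extinction males. Its female levels were 721, 711 and 723 TPM at high and 693, 713 and 808 TPM at low extinction. The groups overlapped in both sexes, and the average change was -0.02 (two-sided exact permutation p 0.55). Syt2, the fast sensor of many inhibitory and hindbrain synapses, was the most variable of the 33, at 8.90 to 21.6 TPM in males and 22.4 to 35.5 TPM in females. Syt4 lay at 77.2 to 108 TPM and Doc2b, a sensor of spontaneous release, at 54.6 to 79.9 TPM, both with overlapping groups. Doc2b was at -0.15 in the authors' deposited table for females (unadjusted p 0.022, adjusted p 0.390).

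The synapsins tether vesicles into a reserve pool. Syn1 measured 334, 338 and 391 TPM in high-extinction and 332, 337 and 355 TPM in low-extinction males. In females it measured 371, 346 and 356 TPM at high and 351, 306 and 388 TPM at low extinction. Both sexes overlapped, and the average change was -0.05 (two-sided exact permutation p 0.465). Syn3, a minor synapsin of the adult brain, measured 11.0, 11.1 and 10.6 TPM in high-extinction and 11.6, 12.5 and 11.9 TPM in low-extinction males, which did not overlap. Its female levels, 9.40, 10.8 and 12.2 TPM at high and 13.5, 9.46 and 11.7 TPM at low extinction, did overlap. The male Syn3 change was 0.13 in limma (adjusted p 0.897), and the average over sexes was 0.11 (two-sided exact permutation p 0.225). Syn2 had mean levels of 359 to 377 TPM in the 4 groups, and in the authors' deposited table for females it was at -0.13 (unadjusted p 0.0096, adjusted p 0.278).

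The SNARE genes, whose proteins form the fusion complex, had overlapping groups. Snap25, of the plasma membrane, measured 1686, 1970 and 2088 TPM in high-extinction and 1770, 1864 and 1876 TPM in low-extinction males. Its female levels were 1996, 1877 and 1883 TPM at high and 1874, 2014 and 2094 TPM at low extinction. Its average change was 0.00 (two-sided exact permutation p 1.0). Vamp2, the main vesicle SNARE, measured 829, 868 and 937 TPM in high-extinction and 857, 851 and 914 TPM in low-extinction males. In females Vamp2 measured 949.7, 866 and 923 TPM at high and 891, 841 and 949 TPM at low extinction, and its average change was -0.02 (two-sided exact permutation p 0.67). Stx1a, the plasma membrane syntaxin, measured 59.2, 79.6 and 76.2 TPM in high-extinction and 60.2, 62.7 and 71.6 TPM in low-extinction males. Its female levels were 79.3, 67.6 and 74.8 TPM at high and 77.3, 62.7 and 75.0 TPM at low extinction. The average change of Stx1a was -0.09 (two-sided exact permutation p 0.32). Vamp1, the SNARE of fast-spiking and motor synapses, lay at 69.7 to 124 TPM over the 12 libraries. The disassembly genes Nsf (455 to 580 TPM), Napa (127 to 159 TPM) and Napb (244 to 302 TPM) had overlapping groups in both sexes.

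Genes of vesicle membrane proteins also had overlapping groups in both sexes. Syp (synaptophysin) lay at 792 to 1001 TPM, Sv2a at 187 to 232, Sv2b at 157 to 216, Sv2c at 11.3 to 14.9 and Syngr1 (synaptogyrin) at 195 to 224 TPM. Their limma changes ran from -0.06 to 0.01 in males and from -0.02 to 0.09 in females. Cplx1 and Cplx2, the complexins, lay at 341 to 439 and 653 to 804 TPM. Rab3a, a vesicle GTPase, lay at 447 to 540 TPM, and its effector Rph3a at 146 to 184 TPM.

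At the active zone, Bsn (bassoon) had the most negative average after Slc17a7. It measured 113, 99.3 and 130.1 TPM in high-extinction and 104, 106 and 106 TPM in low-extinction males. Female levels were 116, 109.9 and 115 TPM at high and 111, 90.6 and 119 TPM at low extinction. The groups overlapped, and the average change was -0.10 (two-sided exact permutation p 0.275). It was -0.04 when low-extinction female 2 was left out and -0.05 when high-extinction male 3 was, and its exact permutation p ran from 0.05 to 0.56 when single libraries were left out. Bsn was at -0.18 in the authors' deposited table for females (SE 0.07, unadjusted p 0.0095, adjusted p 0.278) and -0.11 in that for males (SE 0.08, adjusted p 0.935). Pclo (piccolo) and Rims2 were among 4 genes, with Unc13a and Unc13b, whose low-extinction females all lay above the high-extinction ones. That is 4 of 33, against 14.2% of all genes. No gene of the 33 had groups apart in one direction in both sexes, for which the background was 0.854% upward and 0.189% downward. Rims1 lay at 74.9 to 95.4 TPM and Erc2 at 80.0 to 106 TPM with overlapping groups.

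**Figure D3:**
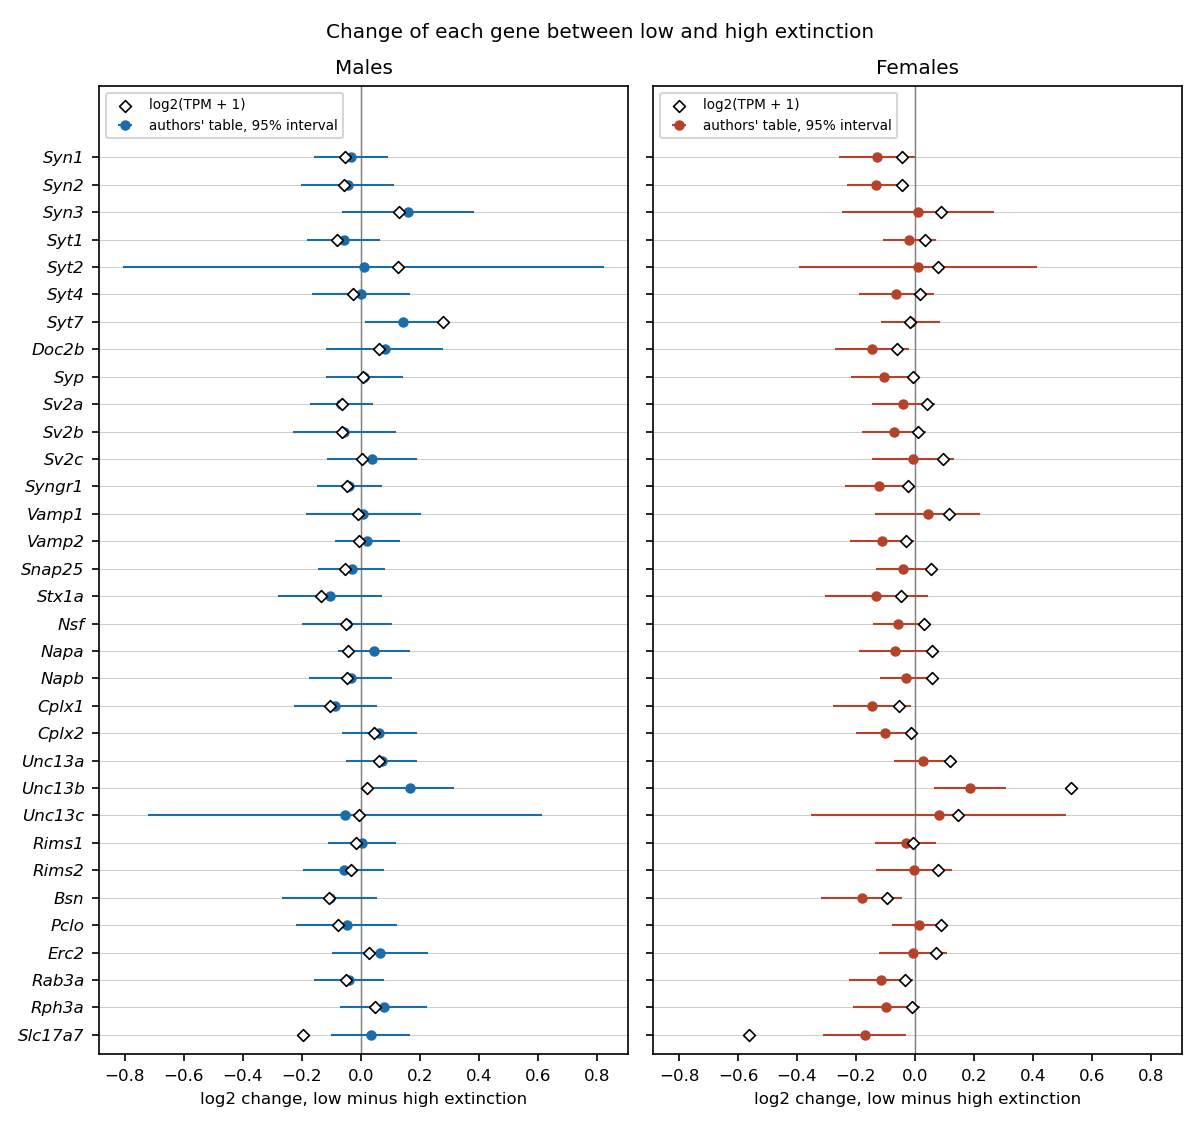
Change between low and high extinction of each gene in males and females, as filled points with 95% intervals from the authors' deposited tables and as open diamonds for the difference in mean log2(TPM + 1). In females most diamonds lie to the right of the filled points, while Slc17a7, at -0.56 and -0.17, lies to the left.

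The number of genes below 0 in females depended on the scale, while the median of the 33 lay below that of all genes on both. In the authors' deposited table for females, 10 of 33 genes (30.3%) were lower at low extinction at an unadjusted p under 0.05. The share was 5.84% of all genes and 8.78% of the 9112 genes with counts at least those of the lowest of the 33. Those 9112 genes share only that floor and were not matched in level. Their median SE was 0.075, against 0.058 for the 33. On deposited TPM, limma listed 1 of 33 as lower and 1 as higher in females at that p, as it did after TMM rescaling or quantile normalization. The 10 lower in the authors' deposited table were Syn1, Syn2, Doc2b, Syngr1, Vamp2, Cplx1, Cplx2, Bsn, Rab3a and Slc17a7, at -0.18 to -0.10. Unc13b alone was higher there at that p, against 4.11% of all genes. Among males, 0 of 33 were lower in the authors' deposited table (4.98% of all genes) and 2, Syt7 and Unc13b, were higher (2.63% of all genes), with a median of -0.00. On deposited TPM, by contrast, 18 of 33 genes were above 0 in females, with a median of 0.02 against 0.06 for all genes, and TMM rescaling left 9 above 0 with a median of -0.05 against -0.00. In males 11 of 33 were above 0 on deposited TPM, with a median of -0.03 against -0.02 for all genes. Single libraries moved these counts: 20 of 33 were above 0 in males without replicate 3 of the high-extinction group (median 0.02), and 29 of 33 in females without replicate 2 of the low-extinction group (median 0.05).

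The median gap between scales was like that of other genes, but single genes stood apart. The female TPM change exceeded that in the authors' deposited table by a median of 0.08 over the 33 genes and 0.08 over all genes, and the male one differed by -0.02 in both. Further than 0.1 from the median of the 33 lay Slc17a7 (-0.39) and Unc13b (0.34) in females. In males Slc17a7 (-0.23), Unc13b (-0.14), Syt7 (0.13) and Syt2 (0.12) did. The other 29 male changes lay within 0.1 of it, as did 73.7% of all genes around their own median. With ribosomal RNA-derived and mitochondrial transcripts both removed from TPM, 16 of 33 genes were above 0 in females, and the median of all genes was 0.04 in place of 0.06. What set the gap was not tested. The difference of the authors' 2 deposited tables, male minus female, was past an adjusted p of 0.05 for 0 of 33 genes and 0.409% of all genes. Slc17a7 had the smallest adjusted p there, 0.706.

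Other presynaptic genes from a list of 96, of which 93 were tested, were counted in the same way. In limma 0 of 93 passed in each of the 4 comparisons, and 0 of 93 passed in the authors' deposited tables. Females had 11 of 93 (11.8%) lower at an unadjusted p under 0.05 in the authors' deposited table and 0 higher. The median of the 93 was -0.04. Of all genes, 5.84% were lower and 4.11% higher. Of the genes with mean normalized counts at least those of the lowest vesicle release gene, 8.78% were lower. That floor was 616, while the 93 reached down to 109, so these sets were not matched in level. For males the authors' deposited table had 2 lower and 2 higher (2.15% each), with a median of -0.01, against 4.98% and 2.63% of all genes. The smallest adjusted p, named after its value was seen, was that of Syt9 in the authors' deposited table for males (-0.63, SE 0.19, adjusted p 0.0928). In that for females Syt9 was at 0.25 (SE 0.33, adjusted p 0.893). Male TPM gave Syt9 a change of -0.39 (limma, adjusted p 0.815).

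Single libraries shifted many of the genes together. In replicate 3 of the high-extinction males 25 of the 33 genes lay above their male mean, by a median of 0.13 against 0.07 for all genes, and in replicate 1 of that group only 4 did, with medians of -0.07 and -0.07. In replicate 3 of the low-extinction females 25 lay above their female mean (median 0.08, all genes 0.08), and in replicate 2 of that group 8 did (median -0.08, all genes 0.01). Replicate 1 of the high-extinction males had the highest share of ribosomal RNA-derived transcripts (21.8%) and replicate 3 of the low-extinction females the lowest (7.31%), and their part in these shifts was not tested. Syt2, Vamp1 and Unc13c were each highest in replicate 2 of the high-extinction males (21.6, 101 and 10.5 TPM) among males, and in replicate 1 of the low-extinction females (35.5, 124 and 15.7 TPM) among females. Those libraries had thalamus and habenula marker sums of 116 and 168 TPM, the latter the highest of the 12 libraries. In replicate 3 of the high-extinction males, where Syt2 and Unc13c were at their lowest (8.90 and 4.76 TPM), that sum was 129 TPM, the highest of the males. Only this marker list was set beside Syt2, Vamp1 and Unc13c. Whether tissue content had a part in their levels was not tested.

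**Figure D4:**
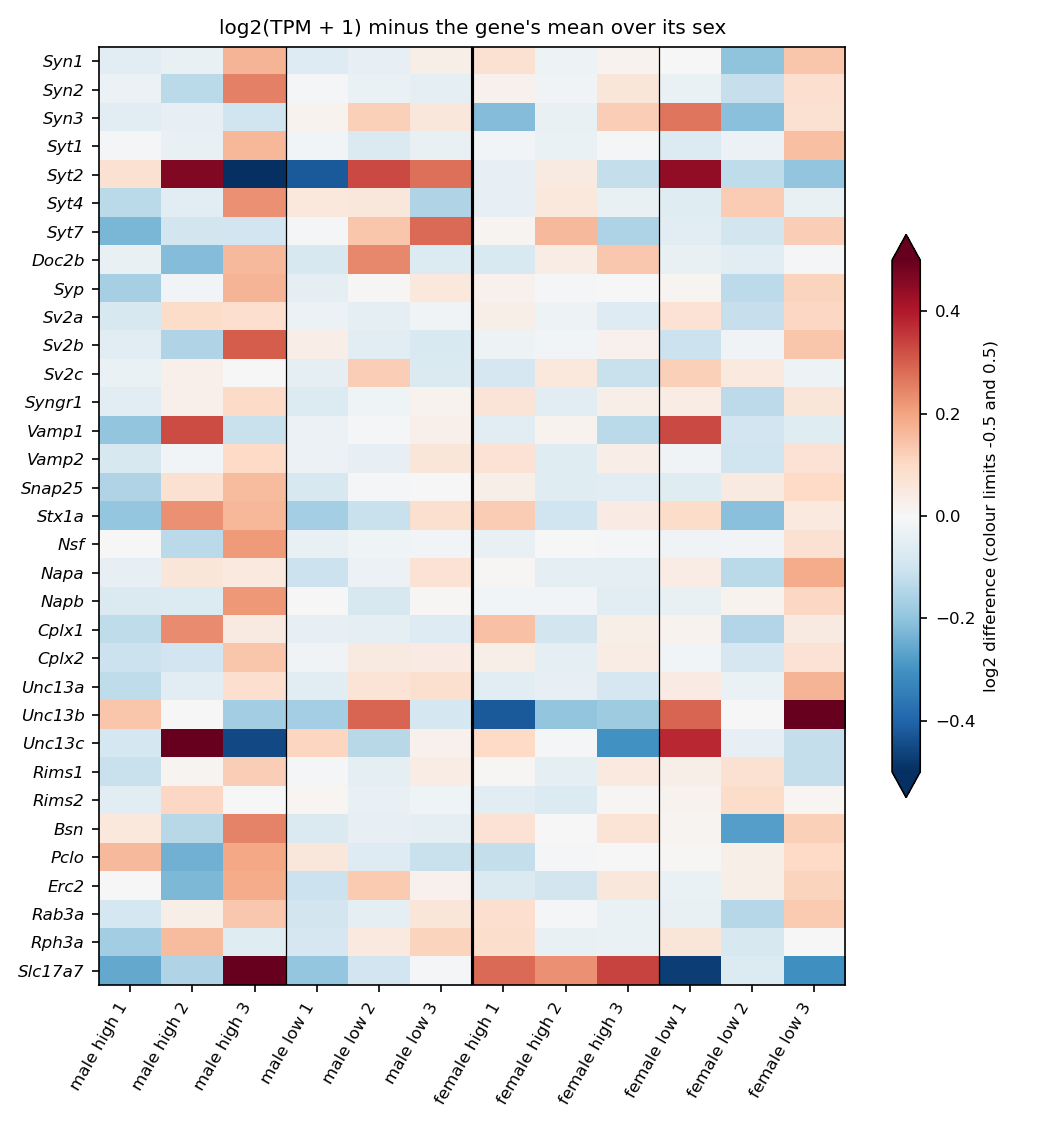
log2(TPM + 1) of each gene in each library minus the gene's mean over the 6 libraries of its sex, with red above and blue below the mean and colours limited at -0.5 and 0.5. Male high 3 is red for 25 of the 33 genes, and Syt2, Vamp1 and Unc13c are red together in male high 2 and female low 1.

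Shares within a paralog family do not depend on the scaling of a library, and those given here were computed after the levels had been seen, as a description. Unc13b made up 19.7%, 22.4% and 23.5% of the summed Unc13a, Unc13b and Unc13c TPM in the high-extinction females and 27.3%, 24.8% and 29.5% in the low-extinction females. The female groups did not overlap, and the male shares, 20.2% to 26.3%, did. These shares come from the same TPM as the levels above, so they are not separate evidence, and no background for separated shares was computed. In the authors' deposited tables the Unc13b change was 0.19 in females and 0.17 in males. Unc13c took 5.64% to 8.81% of that sum in females and 3.31% to 7.33% in males. Vamp1 took 7.32% to 12.2% of Vamp1 and Vamp2, Syt2 1.13% to 4.88% of Syt1 and Syt2, and Cplx1 32.2% to 39.2% of both complexins. Syt2 and Rims2 were the 2 of 33 genes whose male libraries all lay below all female libraries in TPM, against 1.37% of all genes. The tables of the 2 sexes were normalized separately, so no test of sex was made.

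**Figure D5:**
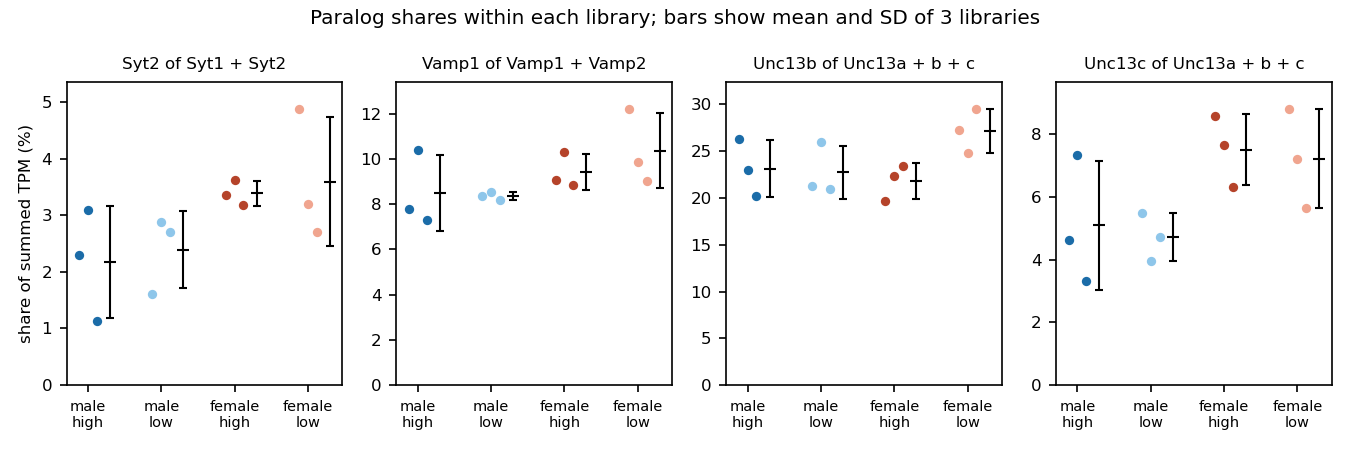
Share of the summed TPM of a paralog family taken by Syt2, Vamp1, Unc13b and Unc13c in each library, in percent from 0, with a point per mouse and bars for the mean and SD of 3 libraries. The female low-extinction points of Unc13b, 24.8% to 29.5%, lie above the female high-extinction points, 19.7% to 23.5%.

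For 5 of the genes an exon overlaps one of a protein-coding gene on the other strand (Syn1 with Araf, Syn2 with Timp4, Syn3 with Timp3, Rab3a with Mpv17l2 and Unc13a with Colgalt1). The sources used here do not say whether the counting used strand, so reads of these pairs may be mixed. Syn3 lay at a mean of 11.3 TPM and Timp3 at 61.4 TPM. With 3 mice against 3, a two-sided exact permutation test within a sex cannot go below a p of 0.1. On simulated data, limma called 20% of planted log2 changes of 0.5 in females, 14% in males and 62% averaged over both sexes.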

How the data were processed

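Hippocampal RNA (1 µg of total RNA per mouse) was enriched for polyadenylated RNA and made into libraries with a KAPA mRNA kit, per the labels' protocols. Builds GRCm38.p5 and mm10 and the tools DESeq2, StringTie 1.3.3b, HTSeq, Bowtie2 and TopHat2 are named, without roles, in the processing notes of the submitters. For each sex the authors deposited a table of TPM with a column per mouse and, per the file headers, a DESeq2 table. That table holds the mean normalized count (a signal scaled by library), the log2 fold change and its error, a test score, a p-value and its adjusted form, all as deposited by the authors. Its header names no direction. Against the change in TPM, low minus high, the sign was opposite for all 101 genes called in males and for 133 of 134 called in females (Pearson across genes -0.72 and -0.62), so the authors' deposited fold changes were multiplied by -1.

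Columns were matched to mice by the names in the labels. No libraries were identical, with correlations of 0.973 to 0.983. Tests were run with limma 3.58.1 in R 4.3.3 (mean-variance trend, Benjamini-Hochberg over all genes tested) on log2(TPM + 1), a scale that shrinks changes of low genes, for genes whose mean was 1 TPM or more in the libraries of a fit. Fits used the 6 libraries of a sex, or all 12 for the average and the interaction. Members named in full were those past an adjusted p of 0.05 or apart in one direction in both sexes (none of either), the 3 most positive, the 3 most negative, the 3 with the largest interaction, and Syt1, Vamp2, Snap25, Stx1a, Unc13a and Syn1. Their average changes were tested by exact permutation of labels within sex. Unc13b passed only in an average of the authors' tables that was added after the data were seen. The members and lists were chosen with earlier results of these data known. Gene positions came from GENCODE M21, in which 33 of 33 genes were found, 30 with the same version. The fits were tested on simulated data with 50 genes changed per size. Permutations and figures used Python 3.11.15, scipy 1.17.1, statsmodels 0.14.6 and matplotlib 3.10.9. Alternatives were other pseudocounts, filters, scalings and variance models, a joint fit, and leaving out each library.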

Additional observations from a re-analysis of the deposited data

How the results depend on the processing

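The count of vesicle release genes called by limma was 0 in every comparison under every other pseudocount (0.1, 0.5), filter, scaling and variance model, in the joint fit, and without any single library. It was 1 (Unc13b) when the fold changes of the authors' 2 deposited tables were averaged, chosen after the data were seen. In the authors' deposited tables the count of 0 became 2 in males and 11 in females at an unadjusted p under 0.05, where 1526 of 20050 and 1556 of 15644 genes passed, and stayed 0 at an adjusted p under 0.1, where 173 and 200 did. With TMM-rescaled TPM the average change of Snap25 was -0.024 in place of 0.00, and that of Unc13a was 0.067 (two-sided exact permutation p 0.045 in place of 0.085). The median of the 33 genes became -0.05 in females and 0.05 for the interaction under TMM. The cause was not tested.

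Leaving out each library in turn, the male change of Slc17a7 ran from -0.37 to 0.11. The average change ran from -0.47 to -0.23 for Slc17a7, 0.063 to 0.12 for Unc13a, 0.052 to 0.17 for Syn3, -0.057 to 0.0083 for Syt1, -0.040 to 0.0061 for Vamp2, -0.044 to 0.033 for Snap25, -0.15 to -0.044 for Bsn, -0.16 to -0.044 for Stx1a and -0.088 to -0.0029 for Syn1. The exact permutation p of Unc13a was 0.025 when high-extinction male 3 was left out and 0.045 when low-extinction male 1 was, and that of Syn3 was 0.035 when low-extinction female 2 was, while other omissions took them up to 0.195 and 0.515. Over all genes, limma called 0 in males (2 to 6 without a library, 1 in the joint fit), 2 in females (4 to 10, and 0 to 4 under the other settings), 0 on average (0 to 3) and 1 for the interaction (1 to 4). No paired analysis was possible because the low and high groups of a sex share no mouse number in the labels. On simulated data limma called 0% of planted log2 changes of 0.25 in males, 2% in females and 18% in the average of the sexes.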
